A study of Homo sapiens with 12 samples.

Results

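The cholesterol and fatty acid synthesis genes described here are 30 genes, chosen by name from 60649 gene rows. They comprise 17 enzymes of cholesterol synthesis, 5 regulators and carriers of sterol, and 8 enzymes of fatty acid synthesis and desaturation. They were measured in 12 mRNA sequencing libraries of Cal33 tumours grown as xenografts. Cal33 is an established human line of squamous cell carcinoma of the head and neck. The smTEADi group received SW-682, a small molecule inhibitor of the TEAD transcription factors, and was compared with a Vehicle group. The pTEADi group carried a TEAD inhibitor switched on with doxycycline (DOX+) and was compared with a Control group without doxycycline (DOX-). Each of the 4 groups had 3 libraries. All libraries came from 1 cell line. Dose, time of treatment, host strain and whether the inducible line was 1 clone are not given in the sources used here. Doxycycline was present in the pTEADi group alone, so its own effect and that of the inhibitor cannot be told apart. The labels do not tie the 3 libraries of a group to different animals, and p-values therefore measure only how these libraries vary. TEAD proteins bind DNA together with the co-activators YAP and TAZ, the outputs of the Hippo pathway, and the comparisons ask how the 30 genes stood when TEAD was inhibited by either route.

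Cholesterol is built from acetyl-CoA through mevalonate and isoprenoid units to squalene, which is closed into lanosterol and then trimmed to cholesterol. Fatty acids are built from the same acetyl-CoA, elongated, and given double bonds by desaturases. Most genes of both routes are targets of the SREBP transcription factors, whose precursors are held in the endoplasmic reticulum by INSIG proteins when sterol is plentiful and are cut free in the Golgi when it is scarce. The liver X receptors switch on genes for sterol export when oxysterols accumulate. Squamous epithelium makes much sterol and fatty acid of its own as its cells mature, for the lipid barrier of the outer layers.

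Library totals were 13576494 to 15433679 expected counts, and 14536 to 14873 genes reached 10 counts in a library. The squamous label held: KRT5 lay between 15040 and 24910 CPM, KRT14 between 10240 and 27380, and TP63 between 229 and 357. CPM are a gene's share of its library's counts, in parts per 1e6, scaled by TMM (trimmed mean of M-values) over all 12 libraries. Adipocyte markers were sparse, with ADIPOQ, CIDEC, LEP and LPL listed at 0 in every library. The 8 adipocyte markers summed to 23.1 to 30.9 CPM in Vehicle, 36.3 to 66.7 in smTEADi, 14.9 to 23.0 in Control and 17.4 to 20.5 in pTEADi, and most of this was FABP4. Hepatocyte markers summed to 1.33 to 3.69 CPM over the 12 libraries. Whether mouse reads were removed is not given in the sources used here.

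All 30 genes were expressed well enough to be tested in both comparisons. Per kilobase of transcript, the highest Vehicle levels were those of FDPS at 84.6 CPM per kb, SCD at 82.0 and SQLE at 58.2, and the lowest were those of FADS1 at 3.94, FADS2 at 2.99 and ELOVL6 at 2.14. In Control the order began with FDPS at 98.5, FASN at 86.1 and SCD at 76.4 CPM per kb, and ended with INSIG2 at 3.41, FADS2 at 3.02 and ELOVL6 at 2.20. FDPS, HSD17B7 and SCD have near-identical pseudogene copies, so their levels are uncertain to the extent that RSEM shared reads among copies.

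Against Control, 12 of the 30 genes passed the test in pTEADi tumours (40%), where 26.3% of the 14705 genes tested did. A gene passed at a Benjamini-Hochberg adjusted p under 0.05 in edgeR's two-sided quasi-likelihood test, adjusted over all genes tested. The 9 that fell, 30% against 13.6% of all genes, were HMGCS1, SQLE, CYP51A1, EBP, INSIG1, STARD4, SCD, FADS1 and FADS2. The 3 that rose, 10% against 12.7% of all genes, were PMVK, TM7SF2 and SC5D. The median log2 fold change was -0.09 over the 30 genes and 0.00 over all genes tested. Levels of the groups did not overlap for 13 of the 30 genes, 4 higher and 9 lower. Of all genes tested, 42.0% did not overlap, 20.3% higher and 21.7% lower. In bulk tumours, fewer cells of a type and less RNA per cell cannot be told apart. Against Vehicle, 0 of the 30 passed in smTEADi tumours, where 5.50% of 14829 genes did (2.02% higher and 3.48% lower). Of these 30, 5 had an unadjusted p under 0.05, where 4128 of the 14829 genes did. DESeq2 called 2 (SC5D higher, FADS1 lower), beside 12.4% of all genes, and the smallest edgeR adjusted p was 0.0591. Their median log2 fold change was 0.09 beside 0.01 over all genes, and 22 of the 30 were above 0, as were 7585 of the 14829 genes. Groups did not overlap for 7 genes, 5 higher and 2 lower. Of all genes tested, 33.0% did not overlap, 15.7% higher and 17.3% lower.

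**Figure D1:**
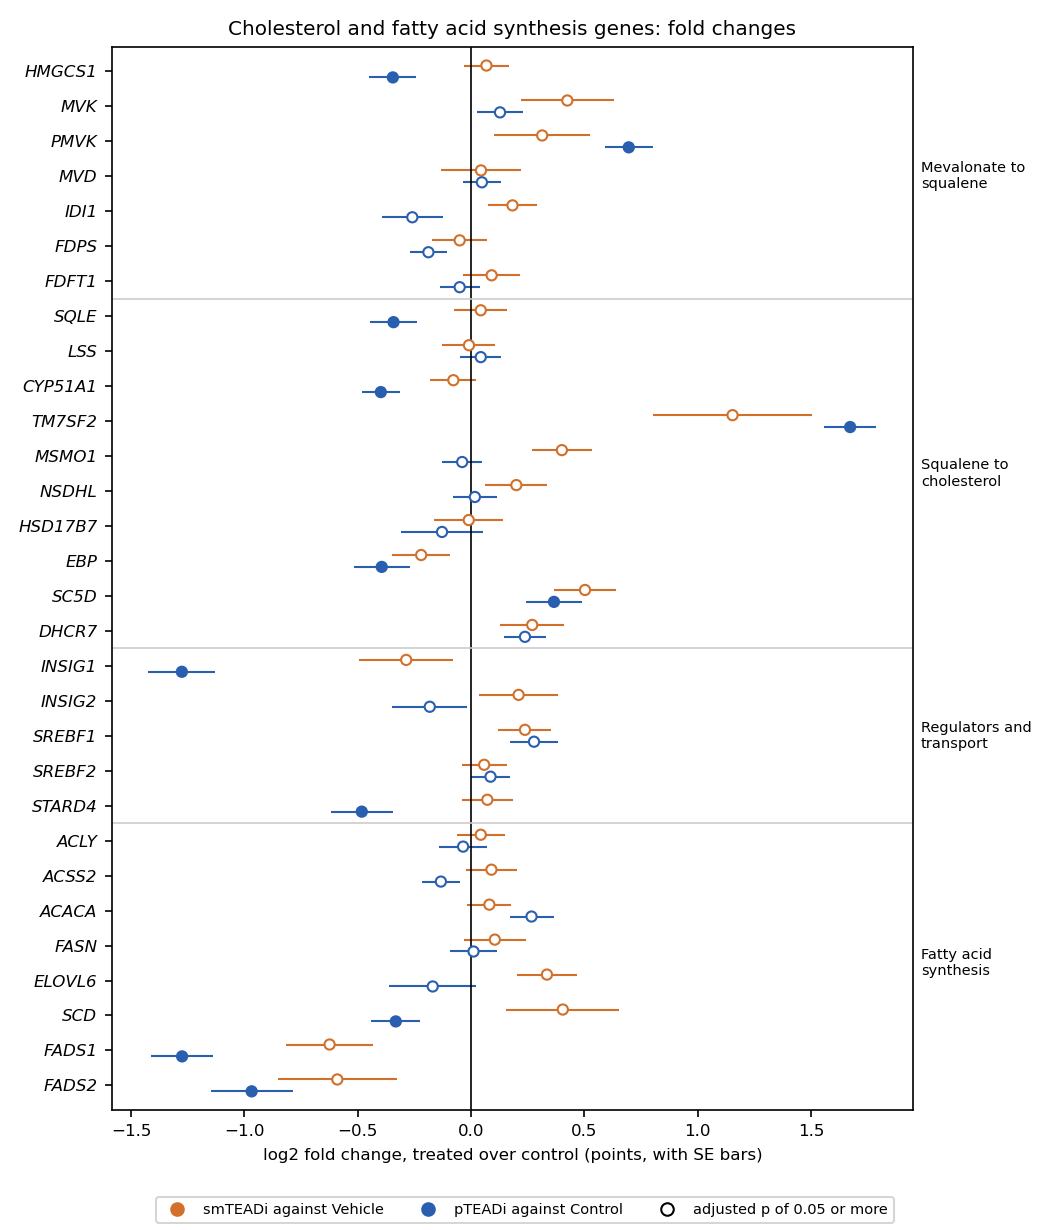
Log2 fold change of each of the 30 genes (points, with SE bars) for smTEADi against Vehicle and pTEADi against Control, ordered by role, with filled points for an adjusted p under 0.05. TM7SF2 lies furthest to the right at 1.67 with pTEADi, and INSIG1 and FADS1 furthest to the left at -1.28 and -1.27.

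In the smTEADi comparison 1 control library stood apart. Vehicle replicate 2 was the highest of the 3 Vehicle libraries in 16 of the 17 sterol enzymes. Its mean log2 CPM over these enzymes was 6.35, beside 5.87 and 6.02 in the other Vehicle libraries and 6.24 to 6.33 in smTEADi. The same library had a mean log2 CPM of 9.96 over 12 squamous differentiation genes, beside 8.501 and 8.75 in the other Vehicle libraries and 9.87 to 10.74 in smTEADi. Over 10 proliferation genes it stood at 5.89, beside 6.31 and 6.51 in the other Vehicle libraries and 4.43 to 5.31 in smTEADi. The part of differentiation and proliferation in its sterol levels was not tested. Without it 6 genes passed, all higher in smTEADi: MVK by 0.71, PMVK by 0.62, TM7SF2 by 1.78, MSMO1 by 0.54, SC5D by 0.58 and SCD by 0.77 on the log2 scale. That was 20% of the 30 genes, beside 10.7% of all genes in the same fit. Vehicle replicate 2 was singled out for its high sterol enzyme levels, so leaving it out lowers the Vehicle mean of those genes. The 6 calls are therefore no separate evidence of a rise with smTEADi. Leaving out any of the other 5 libraries gave 0 members, but these fits called few genes of any kind: 0 without Vehicle replicate 1, Vehicle replicate 3 or smTEADi replicate 3, and 2.21% and 2.65% of genes without smTEADi replicates 1 and 2.

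**Figure D2:**
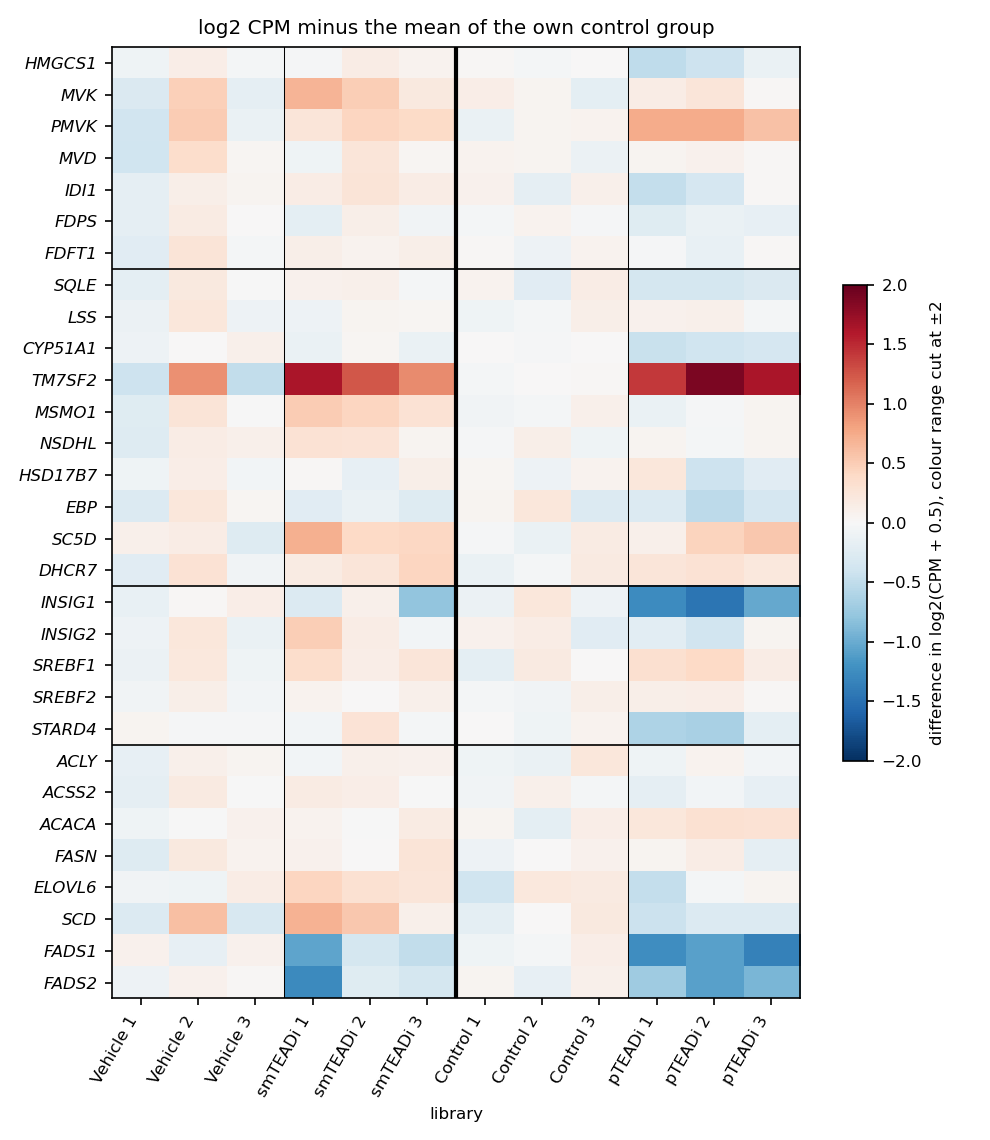
Log2 CPM of the 30 genes in each of the 12 libraries relative to the mean of the matching control group, Vehicle or Control (colour, cut at ±2; rows are genes by role). Vehicle replicate 2 stands above its group in most sterol enzymes, and the pTEADi columns are low for INSIG1, FADS1 and FADS2 and high for TM7SF2.

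Of the 7 enzymes from mevalonate synthesis to squalene, 1 rose and 1 fell with pTEADi (28.6%, near the 26.3% of all genes that passed). HMGCS1 condenses acetyl-CoA units ahead of mevalonate. It measured 89.1, 84.5 and 88.2 CPM in Control and 61.2, 65.3 and 79.8 CPM in pTEADi. Every pTEADi library lay below every Control library, and HMGCS1 fell by 0.34 ± 0.10 (log2 scale, SE; adjusted p = 0.0284). With smTEADi it stood at 117 ± 6.85 CPM (SD, n = 3) beside 112 ± 8.81 in Vehicle, a log2 difference of 0.07 ± 0.10 (SE; adjusted p = 0.69). PMVK, the second mevalonate kinase, went the other way. It measured 18.9, 21.5 and 21.8 CPM in Control and 34.7, 34.8 and 31.3 CPM in pTEADi. The groups were well apart, and PMVK rose by 0.70 ± 0.11 (log2, SE; adjusted p = 0.000747). In the other experiment PMVK measured 15.4, 28.9 and 18.3 CPM in Vehicle and 24.02, 27.4 and 26.4 CPM in smTEADi. Vehicle replicate 2 lay above all smTEADi libraries, and the log2 difference was 0.31 ± 0.21 (SE; adjusted p = 0.361). The kinase MVK, the decarboxylase MVD, the isomerase IDI1, the farnesyl diphosphate synthase FDPS and the squalene synthase FDFT1 passed in neither comparison. Their log2 differences ran from -0.26 (IDI1) to 0.13 (MVK) with pTEADi and from -0.05 (FDPS) to 0.42 (MVK) with smTEADi.

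Of the 10 enzymes from squalene to cholesterol, 2 rose and 3 fell with pTEADi (50% beside 26.3% of all genes). SQLE adds oxygen to squalene ahead of ring closure. It measured 150.2, 122 and 159 CPM in Control and 112.1, 112.2 and 116 CPM in pTEADi. Every pTEADi library was below the lowest Control library, and SQLE fell by 0.34 ± 0.10 (log2, SE; adjusted p = 0.0279). CYP51A1, which removes the C14 methyl group of lanosterol, measured 64.3, 62.6 and 64.4 CPM in Control and 46.6, 48.2 and 50.5 CPM in pTEADi. Its groups were narrow and separate, and it fell by 0.40 ± 0.08 (log2, SE; adjusted p = 0.00453). EBP, the isomerase that shifts a ring double bond, measured 76.1, 86.0 and 60.44 CPM in Control and 60.51, 51.1 and 57.9 CPM in pTEADi. Here the lowest Control and the highest pTEADi library met, although EBP passed at a log2 difference of -0.39 ± 0.12 (SE; adjusted p = 0.0344). In smTEADi tumours the groups overlapped for all 3 and none passed: SQLE differed by 0.04 ± 0.12, CYP51A1 by -0.08 ± 0.10 and EBP by -0.22 ± 0.13 (log2, SE), with adjusted p from 0.297 to 0.842.

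TM7SF2 moved furthest of the 30 genes. It encodes a C14 sterol reductase, the step after CYP51A1, and is annotated on chromosome 11 at 65111845 to 65116384, plus strand (GRCh38). It measured 30.7, 31.65 and 31.8 CPM in Control and 84.85, 117 and 98.6 CPM in pTEADi. The Control libraries lay close together and far below the pTEADi libraries, and TM7SF2 rose by 1.67 ± 0.12 (log2, SE; adjusted p = 9.84e-06). In the other experiment it measured 26.4, 67.4 and 25.0 CPM in Vehicle and 111, 84.8 and 68.7 CPM in smTEADi. The lowest smTEADi library was just above Vehicle replicate 2, and the difference of 1.15 ± 0.35 (log2, SE) did not pass (adjusted p = 0.076). The 2 effects of TM7SF2 differed by 0.52 ± 0.42 (log2, SE, pTEADi minus smTEADi; adjusted p = 0.839), and by -0.10 without Vehicle replicate 2. The gene starts within the same-strand end of VPS51, so some reads could be shared. VPS51 did not pass in either comparison (0.19 ± 0.10 with pTEADi, 0.13 ± 0.10 with smTEADi; log2, SE; adjusted p = 0.169 and 0.462). The same sterol reduction is also carried out by LBR, a nuclear envelope protein. LBR measured 31.1, 31.3 and 25.2 CPM in Control and 14.3, 15.8 and 17.8 CPM in pTEADi, and fell by 0.87 ± 0.13 (log2, SE; adjusted p = 0.000587). Per kilobase, TM7SF2 stood at 19.9 CPM per kb in Control and 63.5 in pTEADi, beside 7.80 and 4.27 for LBR. The pair of C14 reductases thus moved in opposite directions with pTEADi. With smTEADi, LBR differed by -0.18 ± 0.14 (log2, SE; adjusted p = 0.428).

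SC5D, the desaturase of the sterol B ring, was the other late enzyme that rose with pTEADi. It measured 73.9, 68.3 and 84.75 CPM in Control and 80.6, 102 and 110.1 CPM in pTEADi. One pTEADi library lay below the highest Control library, and the rise was 0.37 ± 0.12 (log2, SE; adjusted p = 0.045). In the other experiment SC5D measured 157, 163 and 123 CPM in Vehicle and 239.6, 193 and 195 CPM in smTEADi. Here the groups did not overlap, yet the difference of 0.50 ± 0.14 (log2, SE) did not pass, at the smallest adjusted p of the 30 genes (0.0591). MSMO1, which removes the C4 methyl groups, measured 93.4, 131 and 109 CPM in Vehicle and 157, 149 and 135 CPM in smTEADi, with a log2 difference of 0.40 ± 0.13 (SE; adjusted p = 0.0931). With pTEADi its difference was -0.04 ± 0.09 (log2, SE). The ring-closing cyclase LSS, the C4 demethylation enzymes NSDHL and HSD17B7, and the reductase DHCR7 passed in neither comparison. Their log2 differences ran from -0.13 (HSD17B7) to 0.24 (DHCR7) with pTEADi and from -0.01 (HSD17B7) to 0.27 (DHCR7) with smTEADi.

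**Figure D3:**
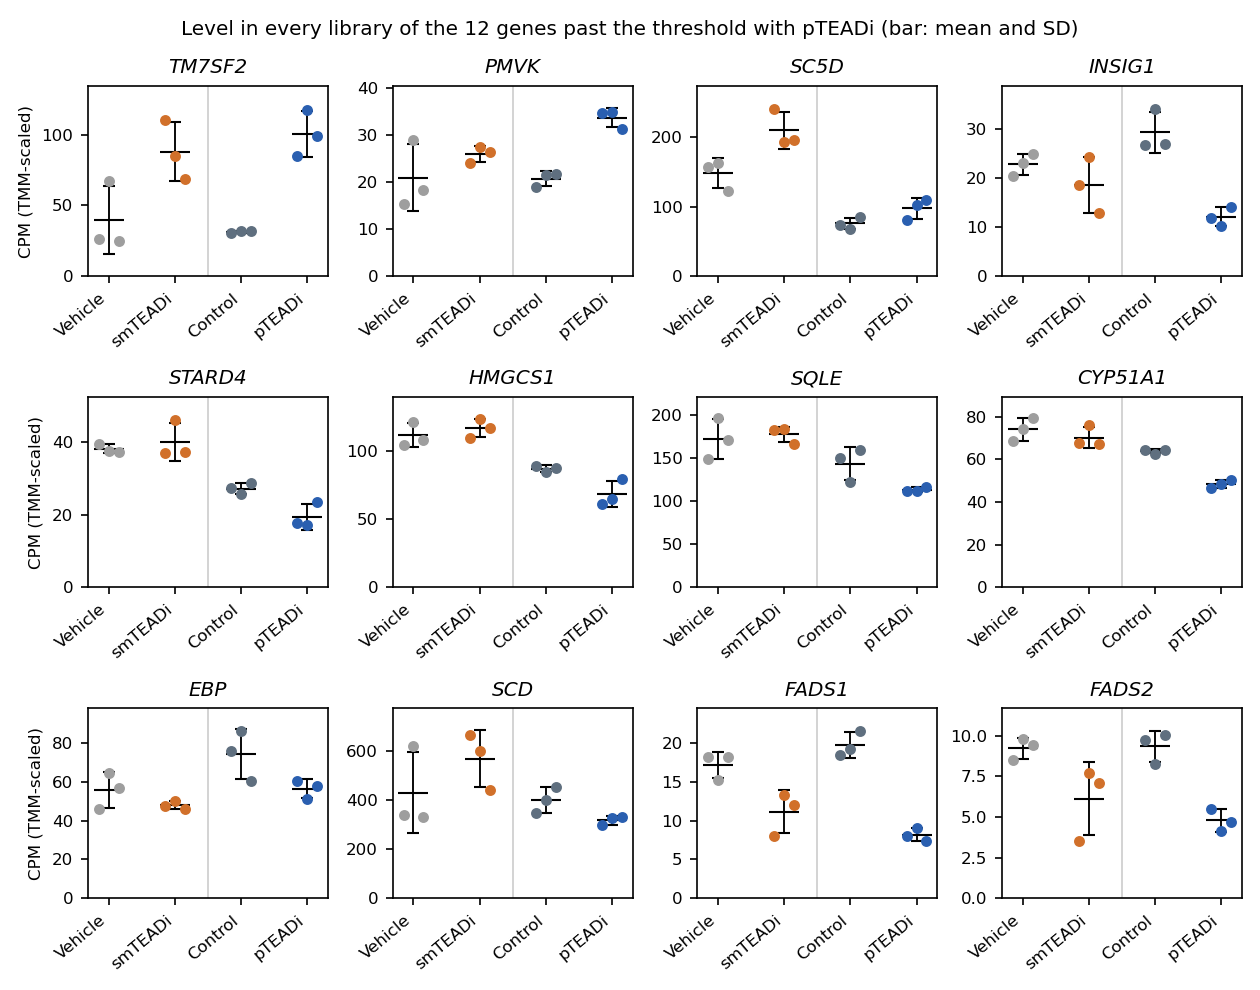
CPM in each library (points), with the group mean and SD (bars), for the 12 genes past the threshold with pTEADi, on axes from 0, in the order Vehicle, smTEADi, Control and pTEADi. TM7SF2 in Control sits between 30.7 and 31.8 CPM and in pTEADi between 84.85 and 117 CPM, whereas Vehicle replicate 2 stands alone at 67.4 CPM.

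Among the 5 regulators and carriers, 2 fell with pTEADi (40%, where 13.6% of all genes fell) and 0 rose. INSIG1, which retains SREBP precursors in the endoplasmic reticulum and is itself an SREBP target, is annotated on chromosome 7 at 155297776 to 155310235, plus strand (GRCh38). It measured 26.9, 34.2 and 27.1 CPM in Control and 11.98, 10.3 and 14.2 CPM in pTEADi. The highest pTEADi library was far below the lowest Control library, and INSIG1 fell by 1.28 ± 0.15 (log2, SE; adjusted p = 0.000136). In the other experiment it measured 20.5, 23.2 and 24.9 CPM in Vehicle and 18.7, 24.5 and 13 CPM in smTEADi. These groups overlapped, at a log2 difference of -0.29 ± 0.21 (SE; adjusted p = 0.398). The 2 effects of INSIG1 differed by -0.99 ± 0.28 (log2, SE, pTEADi minus smTEADi), which did not pass (adjusted p = 0.491). STARD4, a soluble carrier of sterol between membranes, measured 27.4, 25.6 and 28.7 CPM in Control and 17.6, 17.2 and 23.65 CPM in pTEADi. It fell by 0.48 ± 0.14 (log2, SE; adjusted p = 0.0211), with no overlap of the groups. With smTEADi it differed by 0.07 ± 0.11 (log2, SE; adjusted p = 0.717).

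The SREBP genes themselves did not pass. SREBF1, which encodes the SREBP form most tied to fatty acids, measured 197, 254 and 227 CPM in Control and 279.9, 295 and 248 CPM in pTEADi. It measured 126.5, 158 and 129 CPM in Vehicle and 175, 149.9 and 163 CPM in smTEADi. Both pairs of groups overlapped, at log2 differences of 0.28 ± 0.11 (SE; adjusted p = 0.0774) and 0.24 ± 0.12 (SE; adjusted p = 0.22). SREBF2, the form most tied to sterol synthesis, measured 319, 312 and 355 CPM in Control and 356, 358 and 334 CPM in pTEADi. It measured 275, 315 and 280.1 CPM in Vehicle and 304, 290.4 and 311 CPM in smTEADi. Its log2 differences were 0.09 ± 0.09 (SE; adjusted p = 0.514) and 0.06 ± 0.10 (SE; adjusted p = 0.742). INSIG2, a paralogue of INSIG1, measured 12.8, 13.5 and 10.2 CPM in Control and 10.3, 9.19 and 12.6 CPM in pTEADi. It measured 14.8, 18.6 and 14.3 CPM in Vehicle and 22.4, 17.6 and 15.1 CPM in smTEADi, and passed in neither comparison (log2 differences of -0.18 ± 0.17 and 0.21 ± 0.18, SE). The mRNA level of SREBF1 and SREBF2 does not measure how much SREBP was cut free.

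Promoter sequence is shown for 4 genes that fell with pTEADi, for PMVK, which rose, and for SREBF2, which holds the only sterol regulatory element found, since the genes of the pathway are known for shared promoter elements. RefSeq windows (GRCh38.p14) from 250 bases before to 50 bases after the start were at hand for 27 of the 30 genes, all but FDFT1, SQLE and FASN. Each sequence below is the part of the window before annotated transcripts, 5′ to 3′ on the gene's strand. Capitals mark CCAAT, read on either strand (CCAAT or ATTGG), and the sterol regulatory element letters TCACNCCAC.
HMGCS1 (chr5:43313513-43313662, minus strand): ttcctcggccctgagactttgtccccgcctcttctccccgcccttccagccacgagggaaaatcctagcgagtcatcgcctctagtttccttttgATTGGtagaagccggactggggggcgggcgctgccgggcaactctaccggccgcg
INSIG1 (chr7:155297628-155297775, plus strand): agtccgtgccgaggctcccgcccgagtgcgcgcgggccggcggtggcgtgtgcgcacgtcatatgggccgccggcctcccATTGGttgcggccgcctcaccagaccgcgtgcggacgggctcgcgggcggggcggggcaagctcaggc
STARD4 (chr5:111512591-111512785, minus strand): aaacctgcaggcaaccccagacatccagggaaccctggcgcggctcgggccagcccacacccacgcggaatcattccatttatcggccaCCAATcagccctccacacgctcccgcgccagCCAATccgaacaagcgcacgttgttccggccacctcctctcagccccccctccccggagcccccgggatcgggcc
SCD (chr10:100346983-100347232, plus strand): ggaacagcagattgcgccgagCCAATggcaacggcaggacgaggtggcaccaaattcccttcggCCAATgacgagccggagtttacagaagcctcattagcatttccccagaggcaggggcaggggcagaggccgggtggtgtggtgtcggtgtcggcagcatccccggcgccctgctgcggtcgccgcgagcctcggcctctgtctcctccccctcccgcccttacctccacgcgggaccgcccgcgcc
PMVK (chr1:154936720-154936969, minus strand): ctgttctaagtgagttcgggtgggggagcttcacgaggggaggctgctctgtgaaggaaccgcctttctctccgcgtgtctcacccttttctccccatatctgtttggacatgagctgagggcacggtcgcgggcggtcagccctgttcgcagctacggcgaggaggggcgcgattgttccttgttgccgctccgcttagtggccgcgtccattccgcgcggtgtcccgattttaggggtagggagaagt
SREBF2 (chr22:41832855-41833104, plus strand): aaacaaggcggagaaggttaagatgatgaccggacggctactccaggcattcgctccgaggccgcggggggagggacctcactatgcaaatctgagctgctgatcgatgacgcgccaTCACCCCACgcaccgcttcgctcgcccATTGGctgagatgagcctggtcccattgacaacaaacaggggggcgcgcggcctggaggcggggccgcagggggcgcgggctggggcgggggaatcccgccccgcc
In the stretches shown, HMGCS1, INSIG1 and SREBF2 each have 1 CCAAT match, STARD4 and SCD each have 2, and PMVK has 0. CCAAT was found among genes of either direction: of the genes that fell with pTEADi and had a window, 5 of 8 held CCAAT (not CYP51A1, FADS1 or FADS2), and of those that rose, 2 of 3 did (TM7SF2 and SC5D). Over both strands, CCAAT was found in 18 of the 27 windows (66.7%), where 35.7% of all 27305 windows of the same length held it. Unlike the members, those 27305 windows were not limited to genes expressed in these tumours, so the shares are not matched for expression. The GC box letters GGGCGG were found in 25 of the 27 (92.6%, beside 44.6% of all windows) and the E-box CACGTG in 3 (11.1%, beside 7.43%). TCACNCCAC was found in 1 of the 27 (3.7%, beside 1.15% of all windows), starting 133 bases before the start of SREBF2. Each motif was searched on its own, so matches of different motifs could share bases. A match in these letters is a description of the window and does not show binding.

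Among the 8 genes of fatty acid synthesis, 3 fell with pTEADi (37.5%, where 13.6% of all genes fell), and all 3 encode desaturases. SCD, which makes monounsaturated fatty acids, measured 346, 401 and 455 CPM in Control and 297, 329 and 330.5 CPM in pTEADi. It fell by 0.33 ± 0.11 (log2, SE; adjusted p = 0.0413), and the groups did not overlap. In the other experiment SCD measured 339.6, 621 and 329.8 CPM in Vehicle and 667, 600.2 and 441 CPM in smTEADi. Vehicle replicate 2 was again high, and the difference of 0.41 ± 0.25 (log2, SE) did not pass (adjusted p = 0.319). FADS1 and FADS2 encode the desaturases that make polyunsaturated fatty acids from dietary precursors. FADS1 measured 18.4, 19.2 and 21.6 CPM in Control and 8.06, 9.05 and 7.42 CPM in pTEADi. The groups were far apart, and FADS1 fell by 1.27 ± 0.14 (log2, SE; adjusted p = 9.28e-05). In the other experiment it measured 18.2, 15.3 and 18.2 CPM in Vehicle and 8.03, 13.35 and 12.1 CPM in smTEADi. All smTEADi libraries were below Vehicle, but the difference of -0.62 ± 0.19 (log2, SE) did not pass (adjusted p = 0.079). FADS2 measured 9.71, 8.25 and 10.1 CPM in Control and 5.501, 4.12 and 4.72 CPM in pTEADi, and fell by 0.97 ± 0.18 (log2, SE; adjusted p = 0.00241). It measured 8.51, 9.79 and 9.40 CPM in Vehicle and 3.54, 7.69 and 7.10 CPM in smTEADi, a log2 difference of -0.59 ± 0.26 (SE; adjusted p = 0.18). The FADS2 groups did not overlap in either experiment. FADS1 (chromosome 11, 61799627 to 61829318, minus strand) and FADS2 (61792980 to 61867354, plus strand, GRCh38) overlap as annotated, and without a stated strand setting reads of the pair cannot be told apart where they do. The neighbouring desaturase-like gene FADS3 fell in both comparisons, by 0.62 ± 0.11 with pTEADi (adjusted p = 0.00175) and by 0.69 ± 0.13 with smTEADi (log2, SE; adjusted p = 0.0365). The smTEADi call of FADS3 was lost, with every other call, without Vehicle replicate 1 or 3 or smTEADi replicate 3, at log2 differences of -0.77 to -0.55 over the 6 fits.

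None of the other 5 fatty acid genes passed in either comparison, and no test compared them with the desaturases. FASN, the fatty acid synthase, stood at 729 ± 43.9 CPM in Control and 735 ± 83.8 in pTEADi (SD, n = 3), a log2 difference of 0.01 ± 0.10 (SE; adjusted p = 0.955). ACLY and ACSS2, which supply acetyl-CoA, ACACA, which makes malonyl-CoA, and the elongase ELOVL6 complete the list. Their log2 differences with pTEADi ran from -0.17 (ELOVL6) to 0.27 (ACACA), and with smTEADi from 0.04 (ACLY) to 0.34 (ELOVL6).

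How far the pTEADi calls rested on single libraries was examined by leaving out each in turn. PMVK, CYP51A1, TM7SF2, INSIG1, FADS1 and FADS2 passed in all 6 such fits. HMGCS1 and STARD4 were lost without Control replicate 1, pTEADi replicate 1 or pTEADi replicate 2. EBP passed only without Control replicate 3, SC5D only without Control replicate 3 or pTEADi replicate 1, SQLE only without Control replicate 2, and SCD only without Control replicate 1 or 2. The number of members called was 7 without Control replicate 1, 7 without pTEADi replicate 1, 6 without pTEADi replicate 2 and 9 to 12 in the other 3 fits. The share of all genes called fell as well, to 17.1%, 19.6% and 15.5% in the first 3 of these fits. In 1 fit of all 4 groups EBP, SC5D and SCD were lost (adjusted p = 0.0537, 0.0772 and 0.296).

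The 2 experiments share no libraries, and their effects were set side by side. For the difference of the effects, 0 of the 30 genes passed, where 0.0129% of 15460 genes did. Of the 30, 9 had an unadjusted p under 0.05, where 1103 of the 15460 genes did. DESeq2 called 0 of the 30, and the smallest edgeR adjusted p was 0.491. The estimate was negative, that is lower with pTEADi, for 23 of the 30 and for 7468 of the 15460 genes. Across the 30 genes, the 2 log2 fold changes had a Pearson r of 0.853 and a Spearman rho of 0.637, and 18 (60%) had the same sign. Across 14384 genes tested in both, r was 0.675, rho was 0.671 and 75.8% had the same sign. Genes are not independent replicates, so these are descriptions. The extremes TM7SF2, FADS1 and FADS2 stood on the same side in both experiments. HMGCS1, SQLE, STARD4, SCD, MSMO1 and INSIG2, among the 12 that differed in sign, were above 0 with smTEADi and below 0 with pTEADi. Of these, HMGCS1, SQLE and STARD4 with smTEADi, and MSMO1 with pTEADi, differed from 0 by less than their SE.

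Sterol enzymes varied together within the smTEADi experiment, mostly among the Vehicle libraries. Centred on the group mean, their mean log2 CPM was -0.21, 0.27 and -0.06 in Vehicle and -0.05 to 0.04 in smTEADi. With each library centred on its group mean, the correlation of an enzyme with the mean of the other 16 was 0.96 for SQLE, 0.955 for FDFT1, 0.952 for PMVK and 0.94 for MSMO1 over the 6 libraries, and 0.221 for SC5D and 0.327 for CYP51A1. In the pTEADi experiment, where the libraries of a group were closer, the same value was 0.929 for CYP51A1, 0.858 for MSMO1, -0.553 for PMVK and -0.805 for MVK. The libraries share depth and the Vehicle replicate 2 difference, and no test was made of these values.

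**Figure D4:**
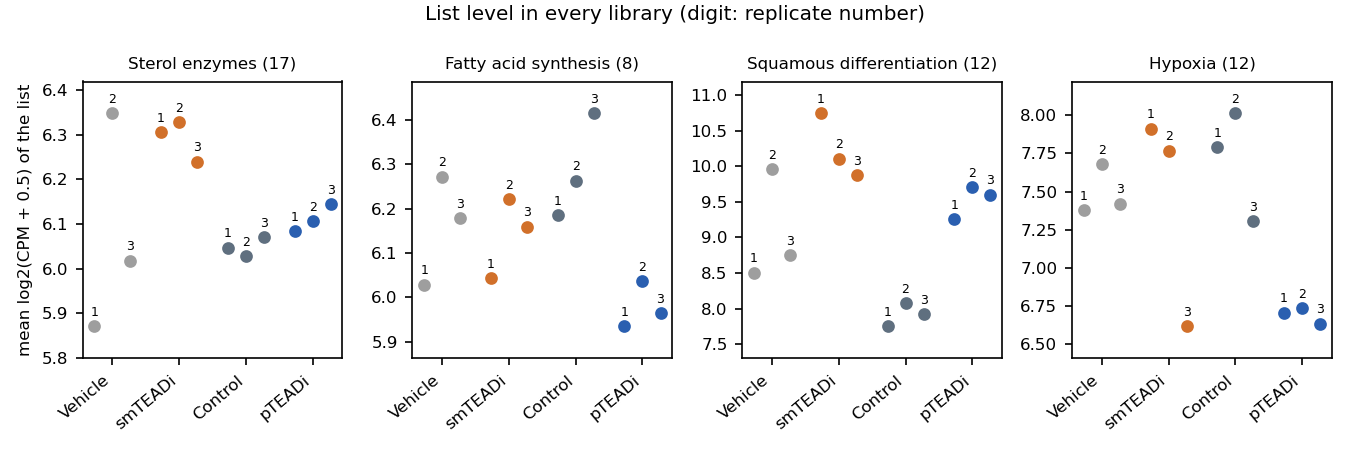
Mean log2 CPM per library (points) of the sterol enzymes, fatty acid synthesis genes and lists that moved beside them, by group. Axes do not start at 0, and digits are replicate numbers. The sterol enzymes, of which TM7SF2 rose most, lie at 6.03 to 6.07 in Control and 6.08 to 6.14 in pTEADi. Squamous differentiation lies at 7.75 to 8.08 and 9.25 to 9.71.

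Of the 17 sterol enzymes, 3 rose and 4 fell with pTEADi (41.2% beside 26.3% of all genes), so a total over them adds changes of opposite sign and says nothing of the single enzymes. They totalled 1363 ± 29.4 CPM in Control and 1394 ± 39.3 in pTEADi, and 1428 ± 219 in Vehicle and 1640 ± 55.7 in smTEADi (SD, n = 3). Their mean log2 CPM was 6.03 to 6.07 in Control and 6.08 to 6.14 in pTEADi. TM7SF2 alone had group means of 31.4 and 100.2 CPM, a larger rise than that of the total. The median log2 fold change of the 17 with pTEADi was -0.04. The 8 fatty acid genes totalled 1419 to 1668 CPM in Control and 1371 to 1556 in pTEADi, with a mean log2 CPM of 6.18 to 6.42 and 5.93 to 6.04. By total the fatty acid groups overlapped and by mean log2 CPM, which weights genes equally, they did not, and neither measure was tested. Other gene groups moved beside the members. Of 12 squamous differentiation genes, 11 rose with pTEADi and 4 with smTEADi. All 10 proliferation genes fell in both comparisons. Of 12 hypoxia genes, 11 fell with pTEADi, from a mean log2 CPM of 7.30 to 8.01 in Control to 6.63 to 6.74, whereas 0 passed with smTEADi, where replicate 3 stood at 6.62 and the other 2 at 7.77 and 7.91. Of 5 endothelial markers, PECAM1, CDH5, KDR and CLDN5 were at or near 0 in every library, and the list summed to 12.9 to 21.2 CPM in Control and 30.8 to 42.6 in pTEADi, nearly all from VWF. It summed to 15.8 to 32.95 CPM in Vehicle and 36.3 to 64.3 in smTEADi. The 7 leukocyte markers summed to 47.5 to 72.85 CPM in Control and 35.95 to 42.2 in pTEADi, with PTPRC, which marks all leukocytes, at or near 0. These lists count human genes, whereas the host cells of a xenograft are not human, so the endothelial and leukocyte sums do not measure host cells. The part of differentiation, proliferation, hypoxia and host cells in the members' changes was not tested.

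The genes around the pathway were read from 5 further lists. Of 10 SREBP processing genes, 3 rose with pTEADi and 0 fell, and this 30% is near the 26.3% of all genes that passed. They were SCAP, the sterol sensor that escorts SREBP (0.34 ± 0.09, adjusted p = 0.0194), the protease gene MBTPS1 (0.42 ± 0.09, adjusted p = 0.00641) and the transport coat gene SEC24C (0.26 ± 0.08, adjusted p = 0.0386; log2, SE). The list median was 0.15. SCAP was lost without Control replicate 1, pTEADi replicate 1 or pTEADi replicate 2, and SEC24C passed only without Control replicate 3. With smTEADi 0 of the 10 passed, with 3 at an unadjusted p under 0.05, beside 4128 of all 14829 genes. Of 8 partners of sterol enzymes, 1 rose and 1 fell with pTEADi (25%, near that background): CYB5A, an electron donor to the desaturases, by 0.66 ± 0.14 (adjusted p = 0.00542), and LBR as above. CYB5A also rose with smTEADi, by 0.69 ± 0.14 (log2, SE; adjusted p = 0.0379).

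Of 12 genes for the isoprenoid branches and for acetyl-CoA condensation, 1 rose and 3 fell with pTEADi (33.3% beside 26.3% of all genes). ACAT2, the cytosolic thiolase ahead of HMGCS1, measured 45.1, 41.7 and 41.65 CPM in Control and 22.7, 24.4 and 24.5 CPM in pTEADi. It fell by 0.84 ± 0.09 (log2, SE; adjusted p = 0.000119). PDSS1, for the ubiquinone side chain, fell by 0.62 ± 0.19 (adjusted p = 0.0345), and by 1.04 ± 0.24 with smTEADi (log2, SE; adjusted p = 0.0446). RABGGTB, a subunit of a prenyl transferase, fell by 0.40 ± 0.09 (adjusted p = 0.00829), and DHDDS, for dolichol, rose by 0.52 ± 0.09 (log2, SE; adjusted p = 0.0017) with pTEADi. With pTEADi, PDSS1 was lost without Control replicate 1 or 2 or pTEADi replicate 1 or 2, and RABGGTB without pTEADi replicate 2.

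Of 14 genes for sterol storage, efflux and uptake, 5 rose and 2 fell with pTEADi, which is 50% beside 26.3% of all genes, and the list median was 0.15. ABCA1, the exporter of cholesterol to lipoproteins and a liver X receptor target, measured 9.08, 8.68 and 9.78 CPM in Control and 20.6, 26.3 and 27.9 CPM in pTEADi. Every pTEADi library was above every Control library, and ABCA1 rose by 1.44 ± 0.14 (log2, SE; adjusted p = 5.9e-05). It measured 22.3, 23.2 and 14.3 CPM in Vehicle and 37.4, 26.2 and 34.4 CPM in smTEADi, where the difference of 0.71 ± 0.20 (log2, SE) did not pass (adjusted p = 0.0631). The exporter ABCG1 rose by 0.83 ± 0.18 (adjusted p = 0.00576), and MYLIP, a ubiquitin ligase of lipoprotein receptors, by 0.92 ± 0.20 (log2, SE; adjusted p = 0.00561). These too are known liver X receptor targets. The liver X receptor genes NR1H2 and NR1H3, on the same list, did not pass with pTEADi (0.19 ± 0.09 and -1.09 ± 0.45; log2, SE; adjusted p = 0.14 and 0.0948). Targets of these receptors were not read as a set, and the part of the receptors was not tested. The lipoprotein receptor VLDLR rose by 0.53 ± 0.13 (adjusted p = 0.0103) and SOAT1, which esterifies cholesterol for storage, fell by 0.73 ± 0.14 (log2, SE; adjusted p = 0.00265). VLDLR was lost without pTEADi replicate 2 (adjusted p = 0.0578). With smTEADi 0 of the 14 passed, with 7 at an unadjusted p under 0.05, beside 4128 of all 14829 genes.

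Of 22 tested genes for fatty acid supply, elongation and activation, 4 rose and 7 fell with pTEADi (50% beside 26.3% of all genes; list median -0.24). ELOVL4, the elongase of very long chains, measured 10.1, 13.9 and 16.6 CPM in Control and 27.1, 32.8 and 31.7 CPM in pTEADi, and rose by 1.17 ± 0.17 (log2, SE; adjusted p = 0.000459). The acyl-CoA synthetases split, with ACSL1 up by 0.68 ± 0.14 (adjusted p = 0.00525) and ACSL4, which prefers polyunsaturated chains, down by 0.72 ± 0.12 (log2, SE; adjusted p = 0.000969). TECR, the last reductase of elongation, rose by 0.38 ± 0.09 (log2, SE; adjusted p = 0.00665). With smTEADi, 1 of 23 rose (ACSL1 by 0.66 ± 0.13, adjusted p = 0.0371) and 1 fell (FADS3, above). Without Vehicle replicate 1 or 3, or smTEADi replicate 3, the smTEADi calls of CYB5A, PDSS1, ACSL1 and FADS3 were all lost, as was every other call in those fits. Those of CYB5A and PDSS1 were also lost without smTEADi replicate 1, and those of CYB5A, PDSS1 and ACSL1 without smTEADi replicate 2. Without 1 library the log2 differences themselves stayed between 0.60 and 0.79 for CYB5A, 0.56 and 0.80 for ACSL1, -0.77 and -0.55 for FADS3, and -1.26 and -0.84 for PDSS1.

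**Figure D5:**
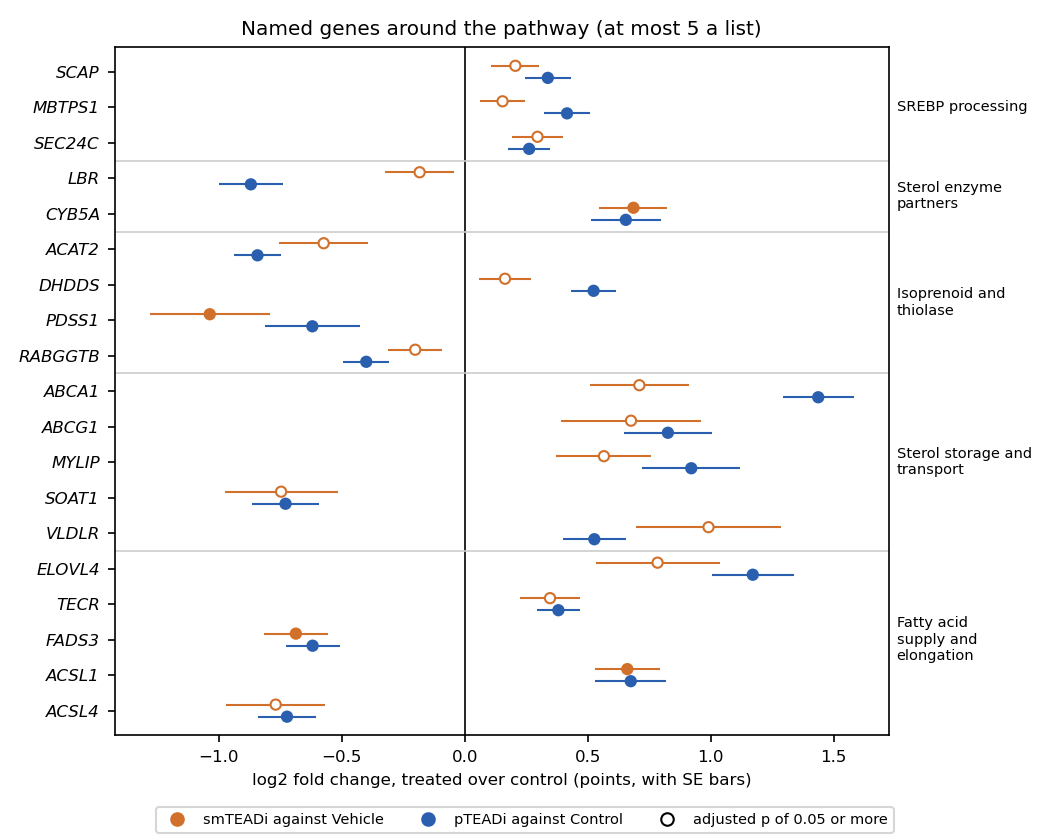
Log2 fold change (points, with SE bars) of up to 5 genes from each of 5 lists around the pathway that passed in either comparison, with filled points for an adjusted p under 0.05. ABCA1 and ELOVL4 lie furthest to the right with pTEADi at 1.44 and 1.17, and LBR and ACAT2 furthest to the left at -0.87 and -0.84.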

How the data were processed

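Poly-T selected mRNA of Cal33 xenograft tumours was sequenced in pairs, in 12 libraries. Per the labels, alignment by the authors was to GRCh38 with STAR 2.7.9a and Gencode 38 annotation and they deposited RSEM 1.3.1 expected counts per gene, unscaled. The strand setting is not given in the sources used here. Rounded counts went into edgeR 4.0.16 (R 4.3.3): filterByExpr (minimum count 10), TMM, and the two-sided quasi-likelihood F test with Benjamini-Hochberg adjustment over all genes. Each treatment was fitted with its own control, and the difference of effects, (pTEADi minus Control) minus (smTEADi minus Vehicle), in 1 fit of 12 libraries. An SE is the log2 fold change divided by the square root of F. Levels per kilobase used Ensembl canonical transcripts (Gencode 44), and a pseudocount of 0.5 entered mean log2 CPM. Of 60649 rows, 60463 had a symbol, and all 30 members matched.

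Every member past the threshold, TM7SF2, SREBF1, SREBF2, INSIG1 and INSIG2 are given by library, and the rest by range. From each pathway list at most 5 genes past the threshold are named, smallest p first. MSMO1, VPS51, NR1H2 and NR1H3 were added after their values were seen. The members and lists were chosen with earlier results of these data known. Alternatives were other scalings, no filter, unrounded counts, DESeq2 1.42.0, a replicate block, 1 fit of all groups and leaving out each library. Tested on simulated data, the procedure recovered 83% of 2-fold changes for smTEADi, 96% for pTEADi and 59% for the difference (15460 genes each), and 6.63%, 7.98% and 8.14% of its calls were false, above the nominal 5%.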

Additional observations from a re-analysis of the deposited data

How the results depend on the processing

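The scaling (RLE or upper-quartile) and unrounded counts changed no call and no direction of a named gene or member count. For smTEADi, 3 members passed with no filter (2101 genes in all), 2 with DESeq2 (1843 genes) and 4 in 1 fit of all 4 groups (2303 genes), beside 0 members and 816 genes as reported. For pTEADi, 13 members passed with no filter, 14 with DESeq2 and 9 in 1 fit of all 4 groups, beside 12 as reported. Without 1 library the count was 0 to 6 for smTEADi and 6 to 12 for pTEADi, over 0 to 1622 and 2325 to 4379 genes in all. For the difference, 2 members passed with no filter (INSIG1 and SCD, 377 genes in all) and 0 without any 1 library. The difference count over all genes was 37 with DESeq2 and 0 to 20 without 1 library. The cause of these changes was not tested.

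Without 1 library some log2 fold changes crossed 0, none of them a call as reported. With smTEADi the ranges were -0.131 to 0.24 for MVD, -0.136 to 0.039 for FDPS, -0.016 to 0.231 for FDFT1, -0.051 to 0.149 for SQLE, -0.071 to 0.113 for LSS, -0.086 to 0.069 for HSD17B7, -0.042 to 0.129 for STARD4, -0.034 to 0.094 for ACLY and -0.016 to 0.205 for FASN. With pTEADi they were -0.008 to 0.075 for MVD, -0.103 to 0.009 for FDFT1, -0.007 to 0.111 for LSS, -0.078 to 0.019 for MSMO1, -0.026 to 0.076 for NSDHL, -0.334 to 0.021 for HSD17B7, -0.104 to 0.087 for ACLY and -0.05 to 0.104 for FASN. For the difference, TM7SF2 ranged from -0.098 to 0.766.

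Libraries with the same replicate number did not deviate together (r of -0.152 to 0.146 in the smTEADi experiment and -0.059 to 0.003 in the pTEADi experiment, across genes), so the numbers were not taken as pairs. With the replicate block, 0 members passed for smTEADi, 12 for pTEADi and 0 for the difference. Over all genes the block left 0 calls for smTEADi and 3707 for pTEADi, and adjusted p rose to 0.0852 for CYB5A, 0.0901 for PDSS1, 0.0828 for FADS3, 0.0852 for ACSL1 (smTEADi) and 0.0578 for SEC24C (pTEADi). Simulated 2-fold changes were recovered at 83% for smTEADi, so differences of that size or smaller can be missed. The simulated share need not hold for genes that varied more: TM7SF2, at a log2 difference of 1.15, did not pass with smTEADi.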
